A study of Sus scrofa with 13 samples.

Results

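The genes described here are fast response genes: IER3 (IEX-1) with IER2, IER5, ATF3, DUSP1, BTG2, ZFP36, MAFF, SOCS3 and MYC. Members were the protein-coding rows of the deposited gene table that carry one of these 10 names, and 8 were found among 20288 protein-coding rows and 30477 rows in all. No row is named BTG2, so that antiproliferative gene was not analysed here. The identifier that a reference table pairs with IER2 (ENSSSCG00000013753) is listed without a name and as a long noncoding RNA, so it is not a member. It held between 0 and 4 reads per library, at most 0.0582 RPKM (reads per kilobase of gene, scaled to the reads of the library).

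RNA was sequenced from veins of pigs, in a series whose title names arteriovenous fistulas, the joined artery and vein used as haemodialysis access. Vehicle animals had received PLGA, a biodegradable polymer, in hydrogel (5 libraries). The 1,25 NP animals had received the same carrier with nanoparticles of 1α,25-dihydroxyvitamin D3, the active hormone of the vitamin D receptor (8 libraries). PLGA and hydrogel were thus common to both groups, and the sources used here give no strain, age, dose or time of harvest. The deposited column names give an animal code and a sex, with 3 females and 2 males in vehicle and 3 females and 5 males in 1,25 NP.

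Fast response genes, also called immediate early genes, are switched on within minutes to hours of a stimulus without new protein synthesis, through kinases such as the MAP kinases and factors such as SRF, NF-kappaB and STAT3. Many of their products then damp the signal that induced them, and their transcripts decay quickly. In a vessel wall they are known to respond to injury, flow and inflammatory cytokines. IER3 acts on survival, NF-kappaB and ERK signalling, and was the gene expected to be lowered by the hormone.

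Libraries held between 30261776 and 50271231 reads on genes. Library P28 of the 1,25 NP group had the lowest median correlation with the other libraries across genes, at 0.795, against 0.854 to 0.918 for the other 12. Fibroblast, endothelial, smooth muscle and macrophage marker genes were measured in every library. The skeletal muscle list summed to at most 0.965 RPKM. In whole veins, fewer cells of a type and less RNA per cell cannot be told apart.

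IER3 did not differ between the groups beyond the spread between animals. In vehicle veins IER3 (ENSSSCG00000027607, chromosome 7, 23265562 to 23267042 in the coordinates of the table, whose build is not named) was at 0.932 RPKM in P13, 1.41 in P14, 1.20 in P15, 2.47 in P16 and 2.33 in P17. In 1,25 NP veins it ran from 0.620 in P22 over a median of 1.75 to 4.98 in P32. The treated veins therefore held both the lowest and the highest IER3 level of the study, with 2 libraries below the vehicle range, 3 within it and 3 above it.

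The group means of IER3 were 1.67 ± 0.690 RPKM (SD, n = 5) and 2.22 ± 1.51 (SD, n = 8). The difference on the log2(RPKM + 0.5) scale was 0.20 (SE 0.37), with a 95% interval from -0.59 to 0.99, that is from 0.666-fold to 1.98-fold (limma, adjusted p = 0.855; two-sided exact permutation p = 0.615). These folds are of RPKM + 0.5 and understate the change of IER3 itself. A fall beyond the lower bound lies outside this interval, but the bound is not a limit of detection. Falls inside the interval cannot be told from no change in these libraries.

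The depth behind IER3 was modest. The 31 reads of P22 gave a 95% Poisson interval of 0.422 to 0.881 RPKM, and the 335 reads of P32 one of 4.47 to 5.55 RPKM. These intervals cover counting error only. The IER3 row lies inside the span of TUBB, a tubulin gene at 88.3 RPKM on average, and reads of overlapping genes are uncertain because the strand setting is not given.

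IER5, a nuclear early response protein that acts on heat shock factor HSF1, was at 6.13, 7.16, 3.01, 4.82 and 7.67 RPKM in vehicle libraries P13 to P17. In 1,25 NP veins it ran from 3.72 in P23 over a median of 6.77 to 12.5 in P28. The groups overlapped, with 5 of 8 treated libraries above the vehicle mean. Its log2 difference was 0.24 (SE 0.29; limma, adjusted p = 0.805), and 0.045 without vehicle library P15 and 0.11 without 1,25 NP library P28.

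**Figure D1:**
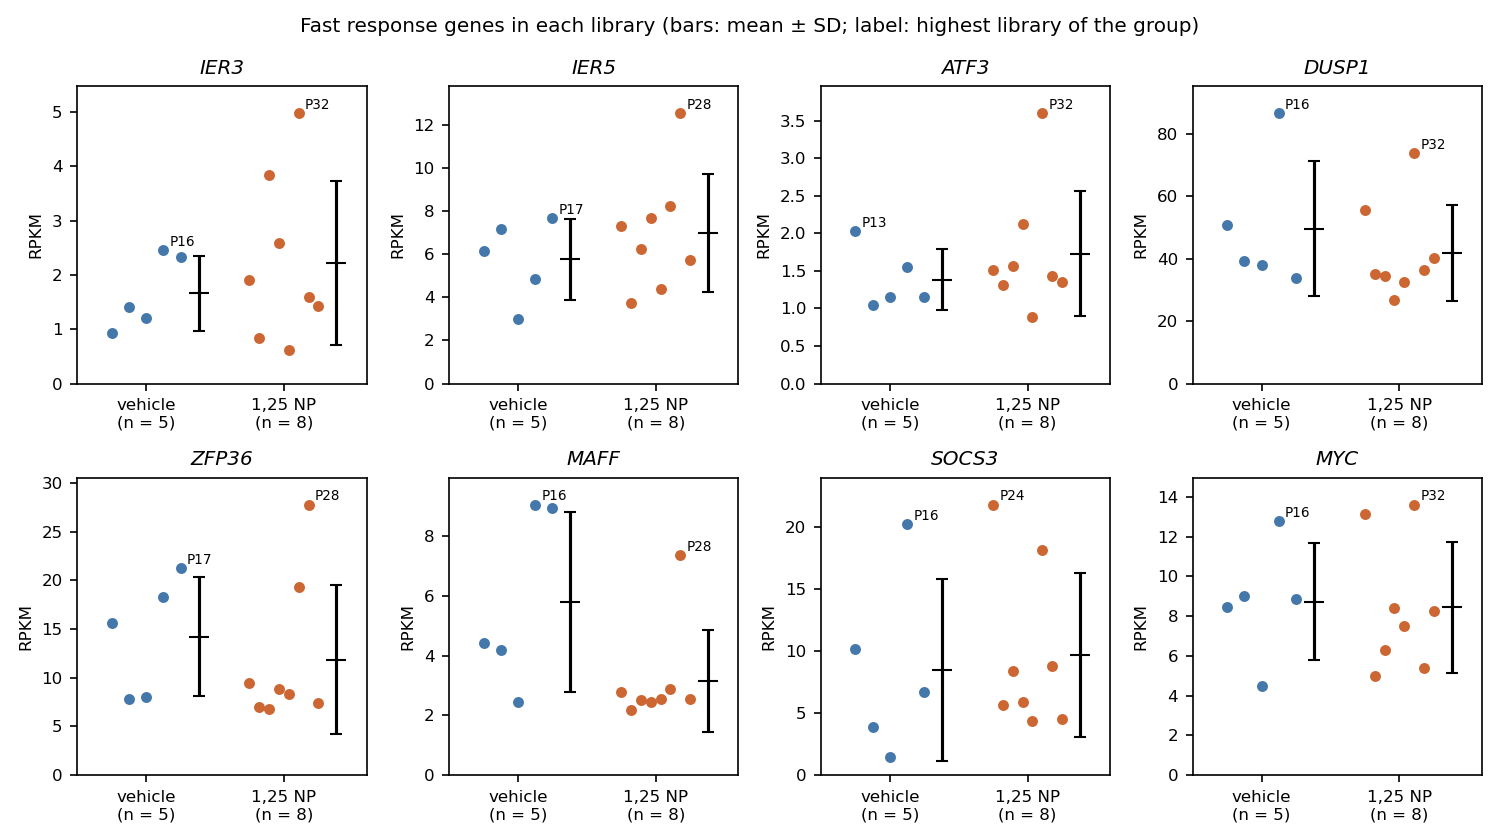
RPKM of each of the 8 genes (vertical axes) in the 5 vehicle and 8 1,25 NP libraries, one point per library, with the mean and SD as a bar beside the points and the highest library of each group labelled. MAFF in 1,25 NP veins lies between 2.17 and 2.88 RPKM in 7 libraries and at 7.37 in P28, and the groups overlap for every gene.

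Among the transcription factors, MAFF had the smallest p-value of the members. MAFF is a small MAF protein, a DNA-binding partner of factors such as NFE2L2 that has no activating domain of its own. It was at 4.41, 4.17, 2.44, 9.06 and 8.95 RPKM in vehicle libraries P13 to P17. In 1,25 NP veins it ran from 2.17 in P23 over a median of 2.54 to 7.37 in P28, and the next highest library was at 2.88. Thus 7 of 8 treated libraries lay below the vehicle mean and close to one another, while 4 of 5 vehicle libraries lay above 4 RPKM.

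MAFF averaged 5.80 ± 3.02 RPKM (SD, n = 5) in the vehicle group, against 3.15 ± 1.72 (SD, n = 8) with 1,25 NP. Its log2 difference was -0.74 (SE 0.33), which did not pass the test across all genes (limma, unadjusted p = 0.0412, adjusted p = 0.795; two-sided exact permutation p = 0.0606). At an unadjusted p under 0.05, 3.21% of the 14579 genes tested were lower in 1,25 NP veins, and MAFF was 1 of the 8 members. That background depends on scaling: 117 genes were higher and 468 lower at this threshold, but 483 higher and 253 lower with median-of-ratios scaling, under which MAFF was at -0.64. It also depends on P28, without which 2213 genes had an unadjusted p under 0.05 and 8.75% of all genes were lower at this threshold. Without 1,25 NP library P28 the MAFF difference was -0.91 (limma, adjusted p = 0.322), and without P16 or P17, the vehicle libraries with the highest levels, it was -0.55 and -0.56.

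The 3 libraries highest in MAFF differed in their smooth muscle markers. The smooth muscle list summed to 5368 RPKM in P17 and 3901 in P28, the highest values of the study, and to 397 in P16. Over 13 libraries the correlation of MAFF with that list was r = 0.50 and rho = 0.34 (permutation p = 0.0745 and 0.263, adjusted p = 0.413 and 0.610 over 72 relations). Without the 2 libraries farthest from the median of the list r was -0.19, so the relation rests on those libraries. Within the treated libraries, P28 among them, r was 0.75 and rho 0.52. The part of smooth muscle in the MAFF values was not tested. MAFF had a higher r with the erythrocyte list, 0.62, and rho = 0.39 (permutation p = 0.0172 and 0.189, adjusted p = 0.204 and 0.610). That r was 0.36 without the 2 libraries farthest from the median of the erythrocyte list, and 0.11 within the treated libraries. The erythrocyte list summed to 4396 RPKM in P17 and to 146 in P16, the next highest library. Its part in the MAFF values was not tested either.

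ATF3, a stress-induced repressor of the ATF/CREB family, was at 2.03, 1.04, 1.16, 1.55 and 1.15 RPKM in vehicle libraries P13 to P17. In 1,25 NP veins it ran from 0.885 in P22 over a median of 1.47 to 3.602 in P32. All vehicle values lay inside the treated range. The log2 difference was 0.19 (SE 0.25; limma, adjusted p = 0.812), and it was 0.057 without P32.

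MYC, a growth-promoting factor that binds DNA with MAX, was at 8.46, 9.001, 4.51, 12.8 and 8.86 RPKM in vehicle libraries P13 to P17. In 1,25 NP veins it ran from 4.97 in P23 over a median of 7.89 to 13.6 in P32. The ranges nearly coincided, and the log2 difference was -0.058 with a 95% interval from -0.68 to 0.57 (limma, adjusted p = 0.946). The sign of this small MYC difference turned with median-of-ratios scaling, to 0.038.

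The feedback inhibitors did not differ between the groups either. DUSP1, a nuclear phosphatase that switches off MAP kinases, was at 50.7, 39.3, 37.9, 86.7 and 33.8 RPKM in vehicle libraries P13 to P17. In 1,25 NP veins it ran from 26.9 in P42 over a median of 35.7 to 73.8 in P32. Vehicle library P16 was the highest, and 6 of 8 treated libraries lay within the vehicle range. The log2 difference of DUSP1 was -0.23 (SE 0.29; limma, adjusted p = 0.811) and -0.0043 without P16.

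ZFP36, known as tristetraprolin, binds AU-rich elements and speeds the decay of cytokine and early response mRNAs. It was at 15.7, 7.77, 8.01, 18.3 and 21.3 RPKM in vehicle libraries P13 to P17, and from 6.73 in P31 over a median of 8.58 to 27.8 in P28 in 1,25 NP veins. Vehicle libraries P14 and P15 were low and the other 3 high, while 6 of 8 treated libraries lay below the vehicle mean. The log2 difference was -0.32 (SE 0.38; limma, adjusted p = 0.799), and it was -0.52 without P28 and -0.15 without P17. As with MAFF, the correlation of ZFP36 with the smooth muscle list, r = 0.51, was -0.14 without the 2 libraries farthest from the median of the list. The ZFP36 row overlaps PAF1, at 4.66 RPKM on average, and another protein-coding row at 1.63 RPKM, so its reads are uncertain. The same holds for MAFF, whose row overlaps the phospholipase gene PLA2G6 (1.37 RPKM on average), and for SOCS3, whose row lies within the span of the thymidine kinase gene TK1 (2.19 RPKM).

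SOCS3, induced by STAT3 and an inhibitor of cytokine receptors that signal through gp130, varied most between animals. In vehicle libraries P13 to P17 it was at 10.2, 3.88, 1.42, 20.3 and 6.69 RPKM, and in 1,25 NP veins it ran from 4.35 in P22 over a median of 7.14 to 21.8 in P24. The lowest and the highest library of the study were 15.4-fold apart. The log2 difference was 0.38 with a wide 95% interval, from -0.74 to 1.49 (limma, adjusted p = 0.817). It was -0.072 without P15, the lowest vehicle library, and 0.79 without P16, the highest vehicle library.

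**Figure D2:**
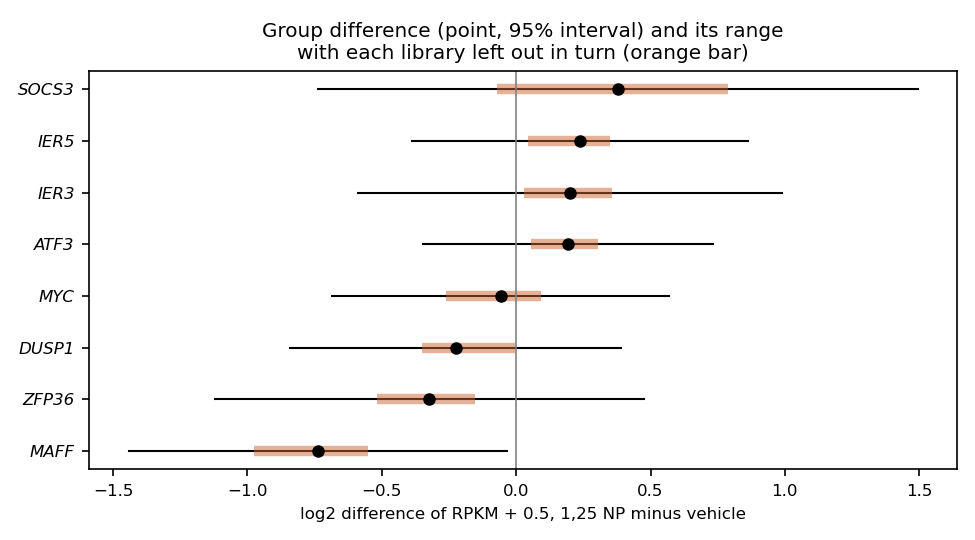
Difference between 1,25 NP and vehicle veins on the log2(RPKM + 0.5) scale for each gene (horizontal axis), with its 95% interval as a line and, as an orange bar, the range of the difference when each library is left out in turn. The unadjusted interval of MAFF, from -1.44 to -0.034, is the one that does not include 0, and the bars of SOCS3 and MYC cross 0.

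Of the 8 members, 0 passed the test across all genes, and limma called 0% of the 14579 genes tested (585 at an unadjusted p under 0.05). limma voom on reads recovered from the values also called 0 genes (632 at an unadjusted p under 0.05), as did voom with sample quality weights (1929). IER3, IER5, ATF3 and SOCS3 were higher on average in 1,25 NP veins, and MAFF, ZFP36, DUSP1 and MYC lower. The median log2 difference of the 8 was 0.068, beside -0.071 over all genes tested, of which 43.8% were higher. Groups did not overlap for 0 of 8 members and for 0.096% of all genes tested.

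The levels of the members themselves differed widely. Per length and averaged over the 13 libraries, DUSP1 was the highest at 44.9 ± 17.6 RPKM (SD, n = 13), followed by ZFP36 at 12.8 ± 6.91. MYC (8.56 ± 3.03), SOCS3 (9.23 ± 6.64) and IER5 (6.51 ± 2.44) came next in the order of mean log2 level, then MAFF (4.17 ± 2.56), IER3 (2.01 ± 1.25) and ATF3 (1.59 ± 0.699). DUSP1 was above ZFP36 in 13 of 13 libraries, with a mean log2 difference of 1.85 (two-sided exact sign-flip permutation, adjusted p = 0.00171 over 7 neighbouring pairs).

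The order was taken from these same libraries, so the direction of each difference was set before the test. Of the 7 neighbouring pairs in that order, 4 differed. These were DUSP1 above ZFP36, ZFP36 above MYC (10 of 13 libraries; exact permutation, adjusted p = 0.0423), IER5 above MAFF (11 of 13; 0.0148) and MAFF above IER3 (10 of 13; 0.0148). MAFF was above IER3 in 5 of 5 vehicle libraries and in 5 of 8 1,25 NP libraries, the exceptions being P32, P31 and P42. MYC and SOCS3 (exact permutation, adjusted p = 0.529), SOCS3 and IER5 (0.398) and IER3 and ATF3 (0.337) did not differ beyond their spread. IER3 was thus among the lowest of the members in the vein wall, with a level near that of ATF3.

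The spread between animals was not high for most of these genes. The SD within groups on the log2 scale was 1.03 for SOCS3, larger than that of 90.4% of all genes tested. IER3 (0.69) and ZFP36 (0.70) also lay above the median gene, at 0.59. ATF3 (0.41), DUSP1 (0.49), IER5 (0.50) and MYC (0.51) lay below it, and MAFF (0.591, against 0.593) was close to it.

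Some libraries were high, and others low, for several members. How common this is among other genes was not tested. Treated library P32 was among the 3 highest libraries for 7 of 8 members, with MAFF the exception, and vehicle library P16 for 4. Treated libraries P22 and P23 were among the 3 lowest for 5 members each, and vehicle library P15 for 4. Both groups therefore held libraries with high and with low levels across the members.

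**Figure D3:**
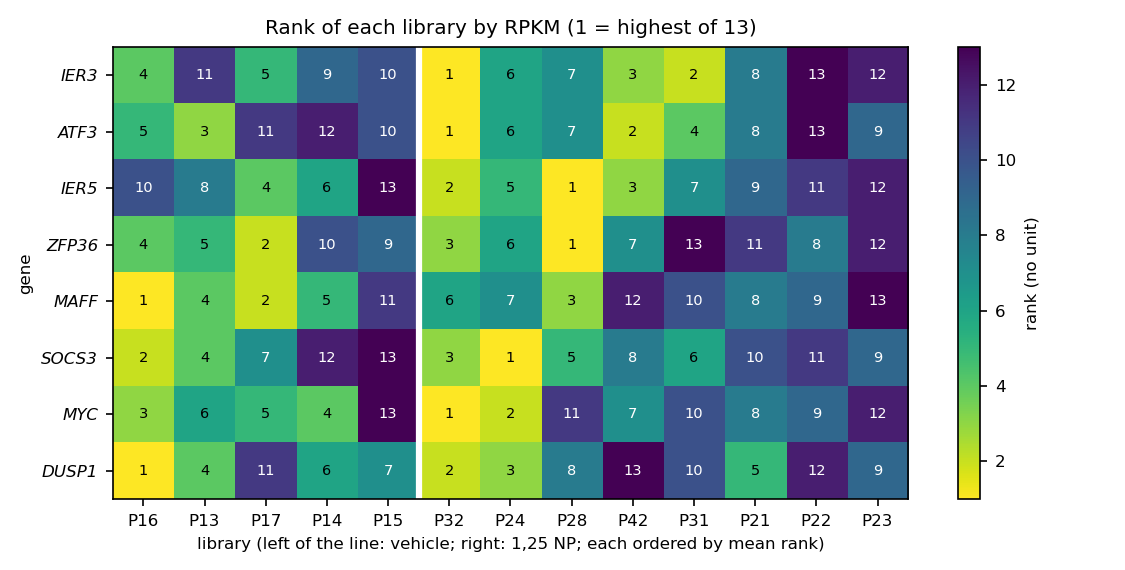
Rank of each library (columns, vehicle left of the white line and 1,25 NP right of it) by RPKM for each gene (rows), where 1 is the highest of 13. P32 has rank 1, 2 or 3 for every gene but MAFF, and P22 and P23 have ranks of 8 or above for every gene.

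Of the 28 pairs of members, 27 had a positive Pearson correlation over the 13 libraries, with a median r of 0.44 and a range from -0.099 to 0.80. No pair passed after adjustment over the 28 pairs, and 7 had a permutation p under 0.05 before it. Pairs of other genes were not examined, so these values have no background beside them. The highest value was that of ZFP36 and MAFF, r = 0.80 and rho = 0.73 (permutation p = 0.0018 and 0.00629, adjusted p = 0.0504 and 0.15), and r was 0.66 without the 2 libraries farthest from the median of ZFP36. SOCS3 and MYC had r = 0.74 and rho = 0.59 (permutation, adjusted p = 0.0519 and 0.162), and DUSP1 and SOCS3 had r = 0.70 and rho = 0.53 (0.0571 and 0.165). The SOCS3 and MYC value was 0.55, and the DUSP1 and SOCS3 value 0.47, without the 2 libraries farthest from the median of the first gene.

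IER3 went most closely with ATF3, at r = 0.66 and rho = 0.66 (permutation p = 0.0125 and 0.0163, adjusted p = 0.0702 and 0.15). Without the 2 libraries farthest from the median of IER3 r was 0.41, and it was 0.42 without P32, the highest library for both genes. Within the 8 treated libraries, a subset examined after seeing the data, r was 0.85 and rho 0.98 (exact permutation, adjusted p = 0.0345 and 0.0111 over 28 pairs). The vehicle libraries did not all follow this: P13 had the highest ATF3 of that group (2.03 RPKM) and its lowest IER3 (0.932 RPKM). With MAFF (r = 0.13), ZFP36 (r = 0.29) and DUSP1 (r = 0.34) IER3 had lower values.

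Across the 6355 named genes above 5 RPKM on average, ARG1, an arginase of the urea cycle and of myeloid cells, had the library ranks closest to those of IER3. The mean absolute difference of ranks over the 13 libraries was 0.923 for ARG1, beside a median of 3.85 over these genes. It was 1.23 for HILPDA, a lipid droplet protein, 1.54 for the kinase PIM1, and 1.23 and 1.38 for the small RNAs SNORD36 and U1, whose rows may share reads with other copies. ARG1 averaged 5.45 ± 11.1 RPKM (SD, n = 5) in the vehicle group, against 12.6 ± 22.98 (SD, n = 8) with 1,25 NP, and was at 14.9 RPKM in P32 and 0.0542 in P22. These genes were picked for their likeness, so no test is given.

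IER3 was also set beside marker genes of other cell types, in the same 72 relations of 8 members and 9 marker lists, of which 0 passed after adjustment. The neutrophil list has 3 of its 5 genes in the table (S100A8, S100A12 and CSF3R), and its sum left a gap between libraries. The sum was 285 RPKM in vehicle library P16 and 100.3, 130 and 612 RPKM in treated libraries P24, P32 and P31, and at most 16.4 RPKM in the other 9. IER3 was between 1.90 and 4.98 RPKM in those 4 libraries and between 0.620 and 2.58 in the other 9, so the ranges overlapped. The 4 libraries held ranks 1, 2, 4 and 6 for IER3. Because the sums form separate clusters, no correlation over all 13 libraries is given. Within the 9 libraries r was 0.50 and rho 0.47 (exact permutation p = 0.172 and 0.213), and r was 0.062 without the 2 farthest from the median, so no relation was shown there.

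With the fibroblast list IER3 had the opposite sign, r = -0.73 and rho = -0.77 over 13 libraries (permutation p = 0.00444 and 0.00264). It did not pass over the 72 relations (adjusted p = 0.128 and 0.184), and r was -0.74 without the 2 libraries farthest from the median of the list and -0.70 within the 8 treated libraries. The collagen I genes COL1A1 and COL1A2, which had the highest medians of that list, had r of -0.65 and -0.77 with IER3. The other fibroblast markers did not follow them, with r of 0.15 for DCN, 0.14 for LUM and 0.29 for PDGFRA. For the endothelial list r was -0.66 and rho -0.71 (permutation, adjusted p = 0.204 and 0.193), and -0.59 without the 2 farthest libraries. Its genes differed, with r of -0.61 for CDH5, -0.58 for ERG and -0.62 for VWF, but -0.28 for PECAM1 and 0.0095 for KDR. With the erythrocyte list r was -0.20 and rho -0.44 over 13 libraries, but -0.85 and -0.95 within the 8 treated libraries. The part of these cell types in the IER3 levels was not tested.

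**Figure D4:**
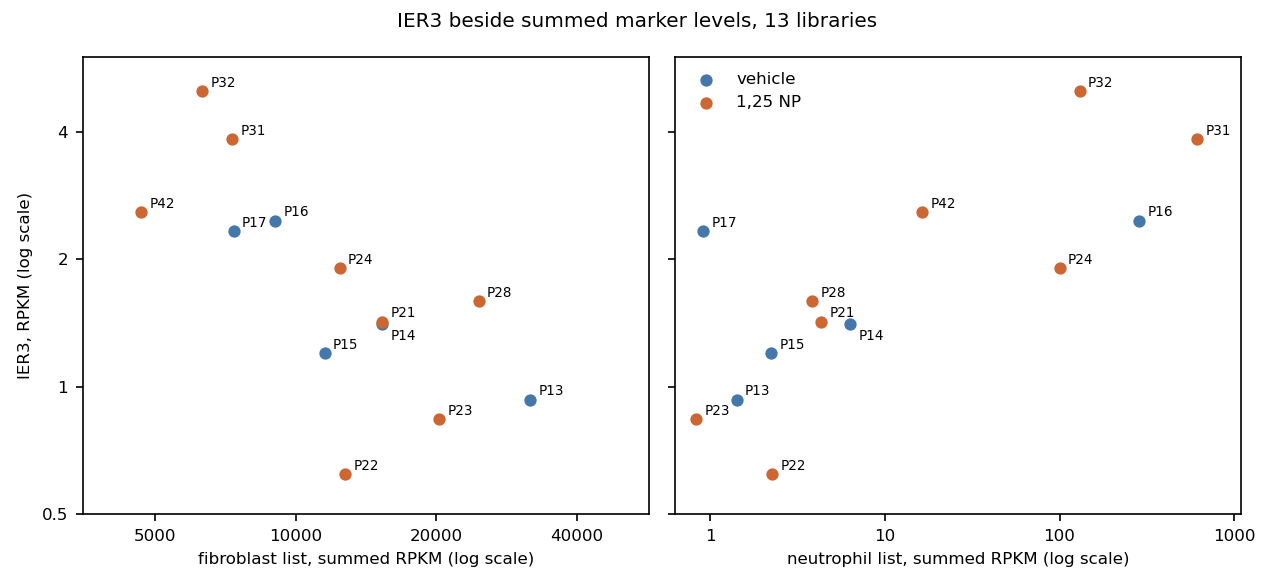
IER3 in RPKM (vertical axis, log scale) against the summed RPKM of the fibroblast list (left, log scale) and of the neutrophil list (right, log scale) in the 13 libraries, coloured by group. IER3 is lower in libraries with a higher fibroblast sum in both groups, and the neutrophil sums leave a gap between 16.4 and 100.3 RPKM.

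The macrophage list had r = 0.73 with DUSP1, 0.65 with SOCS3 and 0.59 with MYC, and rank correlations of 0.37, 0.49 and 0.35. In permutation tests the adjusted p-values of r were 0.128, 0.204 and 0.298, and that of rho 0.610 for each. Without the 2 libraries farthest from the median of the list r was 0.46 for DUSP1, 0.34 for SOCS3 and 0.29 for MYC, so all 3 values rest in part on those libraries.

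Sex did not change the group difference of any member detectably. The group by sex interaction passed for 0 of 8 members, and for 0% of all genes tested (limma, 425 at an unadjusted p under 0.05). The widest gap was that of SOCS3, with a log2 difference of 0.90 (SE 0.70) in females and -0.24 (SE 0.68) in males, an interaction of -1.15 (SE 1.101; limma, adjusted p = 0.824) that ran from -2.27 without P14 to -0.022 without P16. MAFF was lower in 1,25 NP veins in both sexes, by -0.73 (SE 0.50) in females and -0.88 (SE 0.53) in males. IER3 had 0.25 (SE 0.54) in females and 0.052 (SE 0.55) in males.

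The surrounding pathways were described by 11 lists, of which 117 of 130 genes were tested. Of these 48 were higher and 69 lower in 1,25 NP veins, 5 had an unadjusted p under 0.05 and 0 passed over all genes (limma). The lower genes made up 59% of the lists and 56.2% of all genes tested, and those with an unadjusted p under 0.05 were 4.27% and 4.01%, so the lists as a whole lay near the background. With each library left out in turn, the median of 5 of the 11 lists changed sign. The list of NF-kappaB factors, their inhibitors and BCL2 family genes that work beside IER3 lay lowest, with 8 of 11 genes lower and a median log2 difference of -0.55, beside -0.071 for all genes tested. That median ran from -0.70 to -0.35 with each library left out. NFKBIA, the inhibitor that holds NF-kappaB in the cytoplasm, was at 68.9 ± 34.7 RPKM with vehicle, against 33.96 ± 7.98 with 1,25 NP. Its log2 difference was -0.91 with an SE of 0.30 (limma, unadjusted p = 0.00893, adjusted p = 0.795). It was below the vehicle mean in 8 of 8 treated libraries, a count not made for all genes. The groups overlapped, with the lowest vehicle library at 37.8 RPKM and the highest treated library at 46.4 RPKM. NFKBIA had the smallest p-value of that list, which was chosen with earlier results of these data known. The survival gene BCL2L1 had 18.9 ± 10.5 and 10.3 ± 5.99 RPKM, and its log2 difference was -0.92 (SE 0.43).

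Other early response factors gave mixed values. Of 14 AP-1, EGR, NR4A and KLF genes 10 were lower (median -0.22, from -0.49 without P15 to -0.13 without P17). In males alone 6 of the 14 were lower and the median was 0.042. The flow-responsive factor KLF2 was at 7.30 ± 1.76 RPKM with vehicle, against 4.43 ± 1.79 with 1,25 NP, and the TGF-beta-induced factor KLF10 at 11.9 ± 1.22 and 20.3 ± 8.14 (limma, adjusted p = 0.795 for each). Among 17 further early response and growth arrest genes 9 were lower (median -0.14, from -0.25 without P28 to -0.023 without P16, and -0.034 with median-of-ratios scaling), with GADD45G at 5.24 ± 2.05 and 3.37 ± 2.64 RPKM and ERRFI1, a feedback inhibitor of the EGF receptor, at 5.02 ± 2.25 and 3.21 ± 1.37. Of 10 genes of the ATF4 stress response 7 were lower (median -0.20, and -0.098 without P31), led by DDIT4, an inhibitor of mTOR complex 1, at 126 ± 51.9 and 74.3 ± 38.4 RPKM, and JDP2 at 6.41 ± 2.11 and 4.63 ± 2.01.

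Around the feedback inhibitors, 4 of 6 other MAP kinase phosphatases were lower (median -0.14, from -0.23 without P13 to -0.019 without P16). That median was 0.16 in females alone and 0.030 with sample quality weights. DUSP4 was at 5.51 ± 1.85 RPKM with vehicle, against 3.66 ± 1.85 with 1,25 NP, and DUSP5 at 1.98 ± 1.23 and 3.04 ± 1.73. Of 14 MAP kinase and serum response genes 8 were lower (median -0.13, from -0.24 without P13 to 0.0071 without P28), with the kinase MAP2K1 at 5.87 ± 0.922 and 8.38 ± 2.70 RPKM and the SRF cofactor MRTFB at 10.4 ± 2.62 and 7.97 ± 1.94. The mRNA decay partners of ZFP36 had 8 of 12 higher (median 0.19, from -0.049 without P13 to 0.39 without P28, and -0.23 in males alone), with KHSRP at 18.9 ± 4.60 and 15.1 ± 4.93 RPKM and the deadenylase CNOT7 at 6.35 ± 3.05 and 9.60 ± 5.29. In the SOCS family and its STAT3 input 7 of 13 were lower (median -0.061, from -0.12 without P24 to 0.036 without P28), with the receptor IL6R at 6.22 ± 1.61 and 4.22 ± 1.67 RPKM and CISH at 9.44 ± 7.22 and 5.24 ± 4.46.

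Of the partners of the transcription factors, 4 of 8 genes of the small MAF list were lower (median 0.0078, from -0.12 without P17 to 0.080 without P13), with NFE2L1 at 27.7 ± 9.83 RPKM with vehicle, against 20.6 ± 10.3 with 1,25 NP and the detoxifying enzyme NQO1 at 2.97 ± 0.969 and 4.01 ± 1.18. In the MYC network 7 of 9 were lower (median -0.21, from -0.42 without P15 to -0.15 without P42), with MAX, the partner of MYC, at 9.29 ± 1.90 and 7.01 ± 1.54 RPKM and the MYC antagonist MNT at 5.55 ± 2.31 and 3.79 ± 2.71. The BTG and TOB family had 3 genes tested (median 0.042, from -0.19 without P13 to 0.19 without P28), with TOB2 at 13.8 ± 4.497 and 9.79 ± 3.04 RPKM and BTG3 at 6.38 ± 1.87 and 9.74 ± 4.26. None of these genes passed over all genes (limma).

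**Figure D5:**
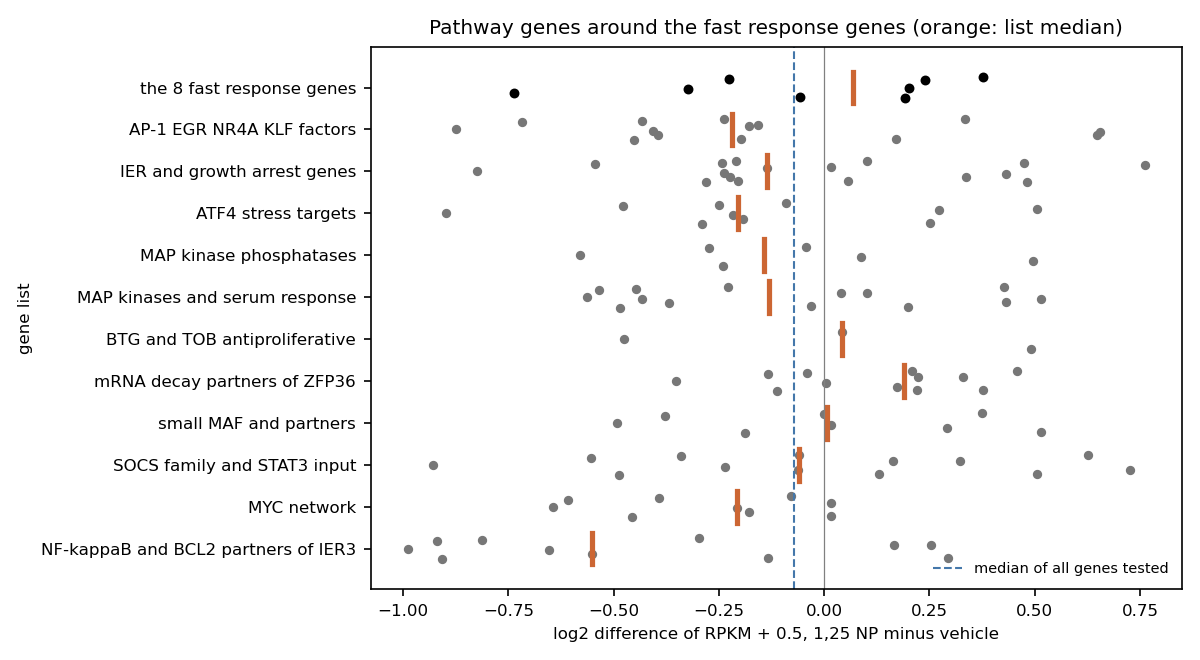
Log2 difference between 1,25 NP and vehicle veins (horizontal axis) of each tested gene in the 11 pathway lists and of the 8 fast response genes (rows), one point per gene, with the list median in orange and the median of all genes tested as a dashed line at -0.071. The NF-kappaB list has the lowest median, -0.55, and the 8 members lie on both sides of 0.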

How the data were processed

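The deposited table holds 1 value per library for each of 30477 genes, and the authors' column names state no unit. Inverting the RPKM formula, with the length plus 1 base and a library total derived from the values, gave whole reads for 100% of values above 0, within 0.001 reads, and these reads summed to that total, so the deposited values were taken as RPKM. The labels name a mouse build and a mouse experiment, which contradict the pig identifiers. The sources used here do not give the aligner, counter, build or annotation. Columns carry animal codes and no replicate number, and each was placed in its group by its name. The labels do not say that the samples were separate preparations, so p-values measure the spread between these samples.

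limma 3.58.1 (R 4.3.3) with a mean-variance trend was fitted to log2(RPKM + 0.5). The filter kept 14579 genes with over 0.5 RPKM in 5 or more libraries, all 8 members among them. P-values were adjusted by Benjamini and Hochberg, with a threshold of 0.05. Differences on this scale understate the change of low genes. Group differences of members and differences between neighbouring levels were tested by exact permutation over all libraries. Correlations were tested by permutation, exact for fewer than 10 libraries and otherwise with 100000 resamples. The fit was also run on simulated reads with the same dispersion for every gene and no library set apart, unlike P28 here. That run does not vouch for the fit on these data. Named genes are the members, the 2 smallest p-values of each list and the 5 genes closest to IER3 in library ranks. Members and lists were chosen with earlier results of these data known. Alternatives in scaling, filter, pseudocount, tool, sex and libraries are in the closing section; relations with the farthest libraries left out, within 1,25 NP or with group means removed were added after seeing the data. Promoters and proteins were not analysed here. Figures were drawn with matplotlib 3.10.9.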

Additional observations from a re-analysis of the deposited data

Results flagged for a closer look

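Of 16 groups of values examined, 8 genes in 2 groups each, 2 had a library far from the others. MAFF in 1,25 NP veins was at 7.37 RPKM in library P28, against at most 2.88 in the other 7. ATF3 in 1,25 NP veins was at 3.602 RPKM in library P32, against at most 2.13 in the other 7. The limit used is one that chance passes in about 1 in 20 groups of normally distributed values.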

How the results depend on the processing

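No paired analysis was possible because the deposited columns carry no replicate numbers and no animal code occurs in both groups. With each library left out in turn, between 0 and 1 genes were called (1 without P17, no member), and the differences ran from 0.029 to 0.36 for IER3, -0.072 to 0.79 for SOCS3 and -0.26 to 0.091 for MYC. No member was called in any setting run. Signs turned for ATF3 in females alone (-0.089), for ZFP36 (0.0075) and SOCS3 (-0.24) in males alone, and for MYC with median-of-ratios scaling (0.038), with sample quality weights (0.11) and in females alone (0.27). Interactions with sex ran from -0.71 to 0.27 for IER3, -0.17 to 0.45 for IER5, -1.09 to 0.042 for DUSP1 and -0.66 to 0.37 for MAFF. Genes passing the interaction test (limma, 0 as reported) numbered 3 with a pseudocount of 1 RPKM, 3 without P15, 1 without P16 and 2 without P42, none of them a member. IER3 and ATF3 had r = 0.79 without P13 (permutation, adjusted p = 0.0381). The number of correlated pairs, 0 as reported, was 4 with median-of-ratios scaling, 1 and 2 with pseudocounts of 0.1 and 1 RPKM, 3 with group means removed, 3 within 1,25 NP libraries, and 0 to 4 with a library left out. The cause was not tested. Median-of-ratios scaling moved the median of all genes from -0.071 to 0.016. With each library left out, 3 to 4 neighbouring pairs of levels differed. The number of libraries limits precision: the median SE was 0.33.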
